A study of Mus musculus with 11 samples.

Results

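The clustered protocadherins are cadherin-type adhesion proteins of the cell surface, encoded in an alpha, a beta and a gamma cluster that lie side by side. All genes of the count table whose symbol names a member of these clusters were taken, which gave 58 of 25239 genes: 14 alpha, 22 beta and 22 gamma members. The alpha genes are 12 alternate isoforms plus Pcdhac1 and Pcdhac2, and the gamma genes are 12 of the A type, 7 of the B type and the 3 C-type genes Pcdhgc3, Pcdhgc4 and Pcdhgc5. In the mm10 annotation of the table all members lie on the plus strand of chromosome 18, alpha from 36930285 to 37188897, beta from 37264998 to 37521419 and gamma from 37661775 to 37841872. All 58 were matched by symbol in the RefSeq table of GRCm38.p6, which lists 1 of them, Pcdhgb8, as a transcribed pseudogene.

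The samples are J1 cells, a line of mouse embryonic stem cells, with mutated DNA methyltransferases, the enzymes that methylate cytosine. RNA was sequenced at day 0 from 1 library each of the genotypes TKO, TKO_FL and TKO_602, after enrichment with oligo(dT) beads. The series' design text writes the latter genotypes as TKO+FL and TKO+602, and labels of other samples write the first as DNMT TKO. What FL and 602 stand for, and whether each genotype is a single clone, is not stated by the labels. All cells grew in serum and LIF on fibroblasts of mouse embryos that had been treated with mitomycin C, so the libraries can hold feeder RNA. The remaining 8 samples, immunoprecipitated DNA, were not analysed here.

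Each alpha and gamma gene has its own promoter and a large variable first exon, which encodes the extracellular and membrane-spanning parts of 1 isoform. That exon is spliced to constant exons shared by the whole cluster, whereas beta genes are single-exon genes without a constant region. The isoforms recognise their own kind on opposing cells and are best known from neurons, where each cell switches on its own set of alternate promoters and thereby gains an identity used in self-avoidance. Promoter choice is known to depend on CTCF, cohesin and DNA methylation, with methylated alternate promoters silent and the C-type genes controlled differently from the alternate ones.

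The gene counts summed to 21133660 reads in TKO, 19573689 in TKO_FL and 43158441 in TKO_602, and levels are given as CPM, counts per 1000000 reads with TMM factors for library size. A CPM of 1 stood for 20.7, 19.2 and 44.8 reads in that order, and 6 reads (3 fragments), the most that a count of 0 allows, for 0.290, 0.312 and 0.134 CPM. With 1 library per genotype no difference has a replicate check or a p-value, and the exact 95% intervals cover counting error only. The header of the count table places the alignment of TKO_602 in a different folder from the other two, so genotype and a batch of libraries cannot be told apart in its comparisons. The naive stem cell markers were present in all 3 libraries: all 12 reached 1 CPM in each, and Pou5f1, a core pluripotency factor, reached 1386 CPM (TKO), 1290 CPM (TKO_FL) and 1169 CPM (TKO_602).

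Counting left out every read that fell on more than 1 gene, so the constant exons shared by alpha or gamma isoforms contributed nothing and each member was read from sequence of its own, mainly the variable exon. Own exon sequence, meaning exonic bases that no other annotated gene covers, was 2340 to 5270 bases for beta and 2499 to 2961 bases for gamma members. Among the alpha genes Pcdha4 and Pcdha7 had 0 own bases and Pcdha6 had 1240, of which 6 lay in its first exon of 2513 bases. Their first exons are also annotated to the read-through loci Gm37013, Gm38667 and Gm38666, which themselves had 0 reads in every library. The 0 reads of these 3 alpha genes therefore say little about their variable exons, and 55 of the 58 members could be read in their first exon.

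The family was expressed mainly from the gamma cluster. All members together had 1012 reads in TKO, 755 in TKO_FL and 1344 in TKO_602, or 48.9, 39.3 and 30.0 CPM. Gamma genes held 93.8% of these reads in TKO (exact binomial interval 91.4 to 95.8%), 94.2% in TKO_FL (91.3 to 96.3%) and 98.2% in TKO_602 (96.9 to 99.1%). All 22 gamma members had reads in all 3 libraries, whereas 13 alpha and 9 beta members had 0 reads in every library. The 15 members that reached a CPM of 1 in a library were all gamma genes.

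**Figure D1:**
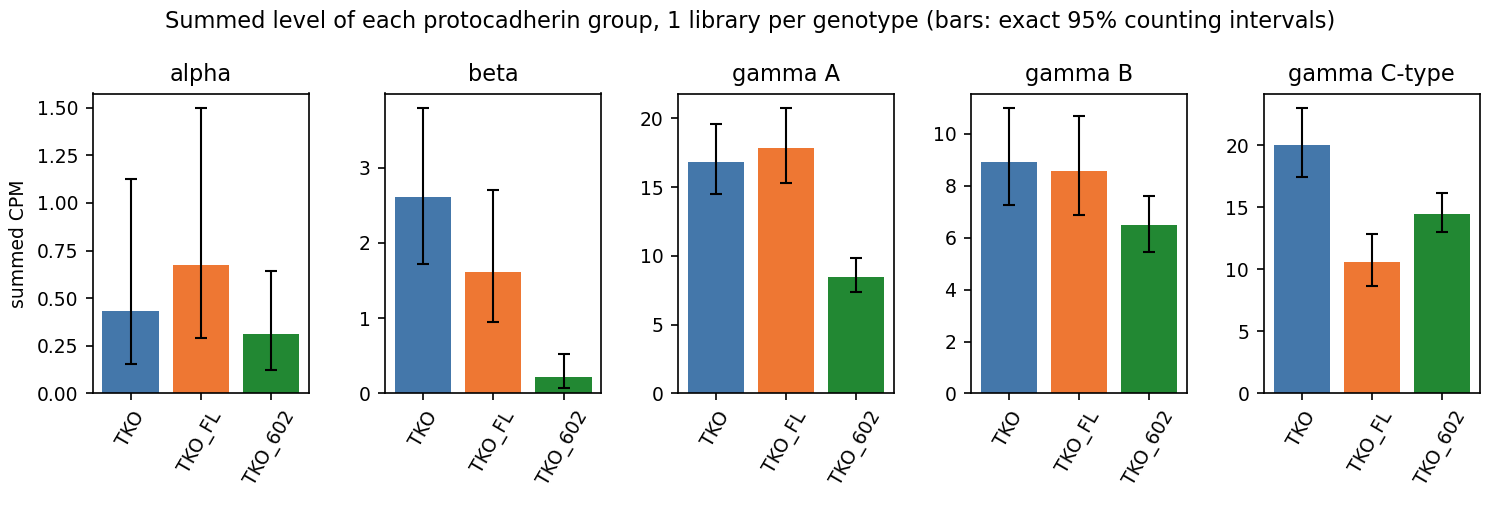
Summed CPM (y axis, linear, a separate scale per panel) of the alpha, beta, gamma A, gamma B and gamma C-type genes in the 3 libraries. Bars are single libraries with exact 95% counting intervals; beta falls to 0.223 CPM in TKO_602, gamma A is lowest there at 8.50 CPM, and the gamma C-type sum is lowest in TKO_FL at 10.6 CPM.

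The summed family level was lowest in TKO_602. It stood at a log2 ratio of -0.70 against TKO (interval -0.87 to -0.53), 1.63-fold lower. Against TKO_FL the log2 ratio was -0.39 (-0.57 to -0.20), and TKO_FL against TKO gave -0.32 (-0.51 to -0.12). TKO enters the first and the last of these ratios, so they are not independent. In bulk RNA, fewer cells that express a gene and less RNA per cell cannot be told apart.

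In the alpha cluster only Pcdhac2, a C-type isoform next to the constant exons, was detected. It had 9 reads in TKO, 13 in TKO_FL and 14 in TKO_602, or 0.435, 0.676 and 0.312 CPM. The intervals of its log2 ratios all held 0 (TKO_FL against TKO 0.64, -1.28 to 2.59; TKO_602 against TKO -0.48, -2.5 to 1.37; TKO_602 against TKO_FL -1.11, -2.96 to 0.52), so no difference was detectable at this depth. Pcdhac1 and the 12 alternate alpha isoforms had 0 reads in each library. For the 10 alternate isoforms with own bases, the limit of 6 reads allows a summed level of up to 0.290, 0.312 and 0.134 CPM in TKO, TKO_FL and TKO_602, and the exact two-sided interval ends at 0.356, 0.384 and 0.165 CPM.

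The beta cluster was faint in TKO and TKO_FL and nearly silent in TKO_602. Its 22 genes had 54 reads in TKO, 31 in TKO_FL and 10 in TKO_602, or 2.61, 1.61 and 0.223 CPM, although TKO_602 was the most deeply sequenced library. The level in TKO_602 was 11.7-fold lower than in TKO (interval 4.44 to 38.9; log2 ratio -3.55) and 7.22-fold lower than in TKO_FL (2.61 to 26.0; log2 ratio -2.85). Between TKO_FL and TKO the log2 ratio was -0.69 with an interval of -1.64 to 0.30, which holds 0. The beta share of all family reads was 5.34% in TKO (3.55 to 7.67%), 4.11% in TKO_FL (2.44 to 6.78%) and 0.744% in TKO_602 (0.242 to 1.73%). Beta genes have close copies of each other, and reads that map equally well to several were left out, so single beta genes are uncertain and their levels are lower limits.

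Most beta reads lay in the last genes of the cluster. Pcdhb16 to Pcdhb22 held 48 reads in TKO, 21 in TKO_FL and 6 in TKO_602, against 6, 10 and 4 in Pcdhb1 to Pcdhb15. Pcdhb16 had 14, 4 and 0 reads in the 3 libraries, or 0.676, 0.208 and 0 CPM. With TKO_602 set to the 6 reads that a count of 0 allows, it was at least 5.05-fold lower than TKO, and the exact interval of the ratio, which also counts the error of the TKO reads, began at 3.12-fold. Pcdhb17 had 11, 7 and 0 reads (0.531, 0.364 and 0 CPM), at least 3.97-fold lower in TKO_602 than in TKO by that limit and 2.55-fold by the start of the interval. For Pcdhb21, with 8, 2 and 0 reads, these values were 2.89-fold and 1.43-fold. All 3 genes thus had their highest level in TKO and 0 reads in TKO_602. Pcdhb22 kept 2 reads in TKO_602 against 9 in TKO and 8 in TKO_FL, a log2 ratio to TKO of -3.28 (-9.00 to -0.28).

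Pcdhb4 went against this order, with 8 reads in TKO_FL (0.416 CPM) and 0 in both other libraries. Its level in TKO_602 was at least 3.11-fold below TKO_FL by the limit of 6 reads, and the exact interval began at 1.54-fold. The interval of TKO_FL against TKO held 0, with a lower end of -0.49 on the log2 scale. The other beta genes with a read had at most 4 reads in any library. Beta genes with at least 1 read numbered 9 in TKO, 6 in TKO_FL and 4 in TKO_602. At the depth of TKO_FL the expected number of beta genes with a fragment was 8.71, 6 and 1.96. No beta gene reached a CPM of 1, so none entered the fold comparisons below.

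**Figure D2:**
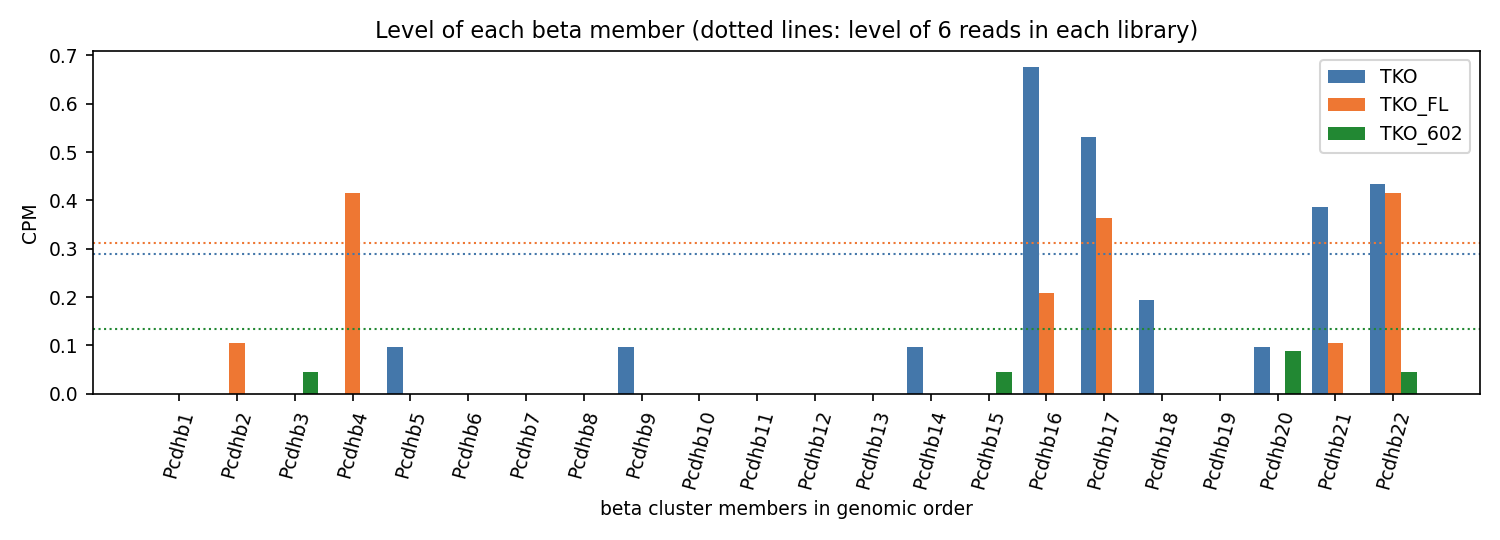
CPM of the 22 beta genes in genomic order (y axis, linear), 1 bar per library, with dotted lines at the level of 6 reads in each library. The visible bars are mostly Pcdhb16 to Pcdhb22 in TKO and TKO_FL plus Pcdhb4 in TKO_FL, and no TKO_602 bar passes its line of 0.134 CPM.

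Within the gamma cluster the C-type gene Pcdhgc3 was the most abundant member in every library. To compare genes, levels were expressed as reads per own kilobase, meaning reads per 1000 bases of own exon, divided like CPM by the library total. On that scale Pcdhgc3 stood at 7.20 in TKO (Poisson interval 6.23 to 8.32), 3.91 in TKO_FL (3.19 to 4.79) and 5.31 in TKO_602 (4.74 to 5.95). That was 17.2, 8.46 and 34.1 times the median of the 19 A and B genes, which was 0.418, 0.462 and 0.156. Even so, Pcdhgc3 lay below most expressed genes: 46.5%, 33.6% and 37.5% of the genes at or above 1 CPM with at least 200 own bases were lower on this scale.

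Pcdhgc3 was lowest in TKO_FL and highest in TKO. It had 383 reads in TKO, 193 in TKO_FL and 611 in TKO_602, or 18.5, 10.0 and 13.6 CPM. The log2 ratio was -0.88 for TKO_FL against TKO (-1.25 to -0.52), -0.44 for TKO_602 against TKO (-0.71 to -0.17) and 0.44 for TKO_602 against TKO_FL (0.10 to 0.78). No pair of libraries differed 2-fold, but all 3 intervals lay on 1 side of 0. Its share of gamma reads was 40.4% in TKO (36.0 to 45.0%), 27.1% in TKO_FL (22.7 to 32.2%) and 46.3% in TKO_602 (42.5 to 50.3%).

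Pcdhgc5, a C-type gene best known from mature neurons, had the same order of levels. Its reads numbered 28 in TKO, 6 in TKO_FL and 34 in TKO_602, or 1.35, 0.312 and 0.759 CPM. It reached a CPM of 1 in TKO alone, so in the fold comparisons with TKO below it had to be lower in the other library. The log2 ratio of TKO_FL to TKO was -2.12 (-4.56 to -0.27). The interval held 0 for TKO_602 against TKO (-0.83, -1.94 to 0.30) and against TKO_FL (1.28, -0.51 to 3.70). Pcdhgc4, an isoform that some neurons need for survival, had 4 reads in every library, under the limit of 6 reads.

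Markers of other cell types were summed as well. Summed levels of the 16 primitive endoderm markers were 2505 CPM in TKO, 498 CPM in TKO_FL and 911 CPM in TKO_602, the same order as for Pcdhgc3. Of the 14 that passed the filter given below, 13 were at least 2-fold lower in TKO_FL than in TKO and 11 in TKO_602, and Afp and Ttr were at 0 in TKO_FL. The shares over all genes that passed were 2.50% lower and 3.24% higher in TKO_FL, and 8.06% lower and 11.0% higher in TKO_602. Of the 14 markers, 1 was above 0 in TKO_602 against TKO. It was Hnf4a, at 2.75, 2.24 and 5.89 CPM, named after its values were seen. The 26 fibroblast feeder markers summed to 2329, 2206 and 2557 CPM, none at 0, and Fn1, which codes for fibronectin, held 1085, 1506 and 1558 CPM of that. The sum of all 26 was highest in TKO_602, unlike Pcdhgc3. Only without Fn1 did the sum of the other 25, at 1244, 701 and 999 CPM, have the order of Pcdhgc3. Mmp2 went the other way, at 19.1, 30.7 and 70.4 CPM, and was not alone. In TKO_602 against TKO 6 of the 24 feeder markers that passed were above 0, Fn1 and Mmp2 among them, and 18 below. Of 25 feeder markers that passed, 0 were at least 2-fold higher and 7 lower in TKO_FL than in TKO (median log2 fold -0.68), and in TKO_602 against TKO 1 was higher and 6 lower of 24 (median -0.30). Pdgfra is in both lists. The part of either cell type in the protocadherin levels was not tested.

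The A and B genes, the alternate isoforms of the gamma cluster, had like summed levels in TKO and TKO_FL and a lower one in TKO_602. Together these 19 genes summed to 25.8 CPM in TKO, 26.4 CPM in TKO_FL and 14.97 CPM in TKO_602. The log2 ratio was 0.03 for TKO_FL against TKO (-0.22 to 0.29), -0.78 for TKO_602 against TKO (-1.02 to -0.54) and -0.82 for TKO_602 against TKO_FL (-1.06 to -0.58). The 12 A genes alone stood at 16.8, 17.8 and 8.50 CPM, 1.98-fold lower in TKO_602 than in TKO (1.61 to 2.45). The 7 B genes stood at 8.93, 8.58 and 6.47 CPM, 1.38-fold lower (1.06 to 1.81). The B sum includes Pcdhgb8, which was higher in TKO_602 at 4.15 CPM than in TKO at 1.98 CPM. Without it the 18 other A and B genes together stood at 23.8, 23.7 and 10.8 CPM, 2.20-fold lower in TKO_602 than in TKO (1.83 to 2.64). The other B genes were not summed on their own.

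**Figure D3:**
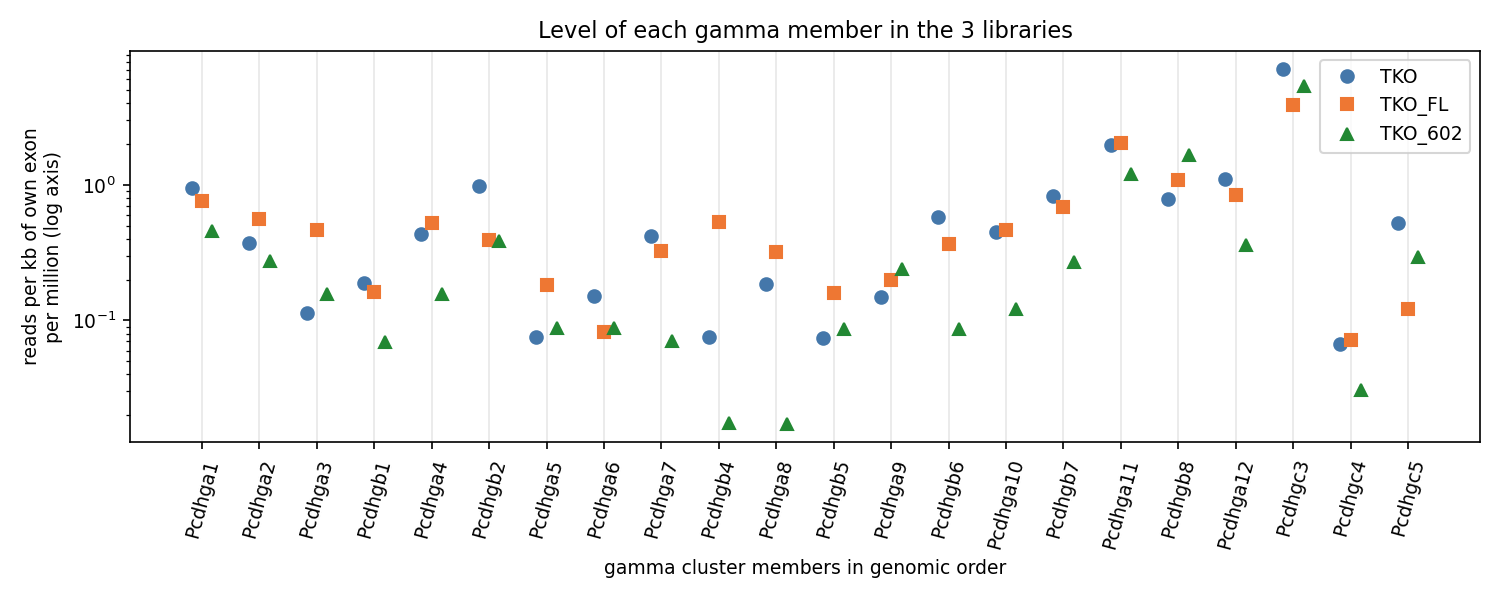
Reads per kilobase of own exon, scaled to the library total like CPM (y axis, log), of the 22 gamma genes in genomic order, 1 marker per library. Pcdhgc3 is the highest gene in all libraries, and for 17 of 22 genes the TKO_602 marker is below that of TKO.

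By level, Pcdhga11 led the A and B genes in TKO and TKO_FL and Pcdhgb8 in TKO_602. Pcdhga11 stood at 1.95 reads per own kilobase in TKO (1.48 to 2.58), 2.04 in TKO_FL (1.52 to 2.69) and 1.20 in TKO_602 (0.938 to 1.52). Below it in TKO came Pcdhga12 at 1.11, Pcdhgb2 at 0.981, Pcdhga1 at 0.95, Pcdhgb7 at 0.825 and Pcdhgb8 at 0.792, whose Poisson intervals all overlapped, and that of Pcdhga12 (0.768 to 1.55) also reached into that of Pcdhga11. In TKO_602 Pcdhgb8 stood at 1.66 (1.34 to 2.03), overlapping Pcdhga11, and the next gene was Pcdhga1 at 0.456 (0.306 to 0.677). The genes kept a broadly similar order: across the 22 gamma members Spearman's rho was 0.71 for TKO and TKO_FL, 0.76 for TKO and TKO_602, and 0.67 for TKO_FL and TKO_602, as a description of libraries whose members share exon lengths and annotation.

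For folds of single genes, log2 ratios of CPM + 1 were used, for genes that reached 1 CPM in either library compared. In TKO_FL against TKO, 15 members passed, of which 0 were at least 2-fold higher and 0 lower, where 3.24% of all 13563 genes that passed were higher and 2.50% lower (5.74% in either direction). Their median log2 fold was -0.17, against 0.00 over all genes. In TKO_602 against TKO, 0 of 12 members were at least 2-fold higher and 2 lower, Pcdhga12 and Pcdhgb6, where 11.0% of 13748 genes were higher and 8.06% lower (19.0% in either direction). The median was -0.69, against 0.03 over all genes, and 11 of the 12 were below 0. In TKO_602 against TKO_FL, 0 of 11 were higher and 1 lower, Pcdhgb4, where 6.75% of 13683 genes were higher and 4.87% lower (11.6% in either direction), and the median was -0.65 against 0.03. With a pseudocount of 0.1 instead of 1, 2 members were higher and 2 lower in TKO_FL than in TKO, 1 higher and 7 lower in TKO_602 than in TKO, and 6 lower in TKO_602 than in TKO_FL. Few members passed and most were near the filter, so these counts and medians describe them and support nothing further.

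On the ratio without a pseudocount, the counting interval in TKO_602 against TKO lay wholly below 0 for 10 of the 12 members and wholly above for 1. Over all genes that passed, 35.7% lay below and 38.8% above. For TKO_FL against TKO 3 of 15 lay below and 2 above, with 25.7% and 25.9% over all genes. For TKO_602 against TKO_FL 7 of 11 lay below and 1 above, with 32.8% and 35.3% over all genes. Of the 12 members in TKO_602 against TKO, 7 passed the filter through TKO alone, and of the 11 in TKO_602 against TKO_FL 6 passed through TKO_FL alone. These had to be lower in TKO_602. Of the 15 in TKO_FL against TKO, 4 passed through TKO alone and had to be lower in TKO_FL. Another 3 passed through TKO_FL alone and had to be higher there. The counts are therefore not read against the shares over all genes. How narrow such an interval is depends on the reads behind a gene, which are few for these members.

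The members that were lower in TKO_602 than in both other libraries came from several places along the cluster. Pcdhga12, the last A gene, had 68, 48 and 48 reads in TKO, TKO_FL and TKO_602, or 3.28, 2.496 and 1.07 CPM. Its log2 ratio was -1.62 for TKO_602 against TKO (-2.43 to -0.82) and -1.22 against TKO_FL (-2.10 to -0.34). Pcdhgb7 had 44, 34 and 31 reads (2.12, 1.77 and 0.692 CPM), a log2 ratio of -1.62 to TKO (-2.60 to -0.58) and -1.35 to TKO_FL (-2.39 to -0.23). In both genes TKO_602 was the low library, and TKO and TKO_FL were within counting error of each other.

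Pcdhgb6 had 31, 18 and 10 reads (1.497, 0.936 and 0.223 CPM), with log2 ratios in TKO_602 of -2.75 to TKO (-4.59 to -1.28) and -2.07 to TKO_FL (-3.99 to -0.34). Pcdhga10 had 24, 23 and 14 reads (1.16, 1.20 and 0.312 CPM), with -1.89 to TKO (-3.48 to -0.43) and -1.94 to TKO_FL (-3.58 to -0.54). Pcdhga7 had 22, 16 and 8 reads (1.06, 0.832 and 0.179 CPM), with -2.57 to TKO (-4.68 to -0.82) and -2.22 to TKO_FL (-4.40 to -0.32). These 3 genes reached a CPM of 1 in TKO and stood under 0.4 CPM in TKO_602. In that comparison they passed the filter through TKO alone, as did Pcdhga4, Pcdhgb7, Pcdhgb2 and Pcdhgc5, and so had to be lower in TKO_602. Against TKO_FL, Pcdhga10, Pcdhga4 and Pcdhgb7 passed through TKO_FL alone and again had to be lower in TKO_602. Pcdhga4, from the first part of the cluster, was highest in TKO_FL and lowest in TKO_602, with 23, 26 and 18 reads (1.11, 1.35 and 0.402 CPM) and a log2 ratio in TKO_602 to TKO of -1.47 (-2.95 to -0.16). Pcdhga11, the most abundant of these genes, had 105, 102 and 140 reads (5.07, 5.30 and 3.12 CPM), a log2 ratio in TKO_602 to TKO of -0.70 (-1.25 to -0.17).

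Near the start of the cluster, Pcdhga1 had 51, 38 and 53 reads (2.46, 1.98 and 1.18 CPM). Its log2 ratio was -1.06 for TKO_602 against TKO (-1.89 to -0.22), and the interval held 0 against TKO_FL (-0.74, -1.61 to 0.21). Pcdhga2 had 20, 28 and 32 reads (0.966, 1.46 and 0.714 CPM), and the intervals of all its ratios held 0. Pcdhgb2 was high in TKO alone, with 51, 19 and 43 reads (2.46, 0.988 and 0.959 CPM). In both comparisons to TKO it passed the filter through TKO alone and so had to be lower in the other library. Its log2 ratio to TKO was -1.32 in TKO_FL (-2.49 to -0.17) and -1.36 in TKO_602 (-2.24 to -0.48).

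Pcdhgb4 and Pcdhga3 were highest in TKO_FL. Both reached a CPM of 1 there alone, so they passed the filter through TKO_FL only and had to be higher in it. Pcdhgb4 had 4, 26 and 2 reads, or 0.193, 1.35 and 0.0446 CPM. Its log2 ratio was 2.81 for TKO_FL against TKO (0.66 to 6.0) and -4.92 for TKO_602 against TKO_FL (-10.33 to -2.19), from counts of 1 to 13 fragments. Pcdhga3 had 6, 23 and 18 reads, or 0.290, 1.20 and 0.402 CPM, with 2.05 for TKO_FL against TKO (0.22 to 4.57) and -1.57 for TKO_602 against TKO_FL (-3.06 to -0.26). Both lie among A and B genes whose summed level did not differ between TKO and TKO_FL beyond counting error.

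Pcdhgb8, the pseudogene in the RefSeq table, was the only member that passed the filter and had an interval wholly above 0 in TKO_602 against TKO. It had 41 reads in TKO, 52 in TKO_FL and 186 in TKO_602, or 1.98, 2.70 and 4.15 CPM. The log2 ratio was 1.07 for TKO_602 against TKO (0.34 to 1.79), 0.79 on the CPM + 1 scale. Against TKO_FL it was 0.62 with an interval of -0.02 to 1.31, and TKO_FL against TKO gave 0.45 (-0.47 to 1.32). Its share of gamma reads was 4.32% in TKO (2.76 to 6.68%), 7.31% in TKO_FL (4.83 to 10.5%) and 14.1% in TKO_602 (11.5 to 17.0%). It lies between Pcdhga11 and Pcdhga12, both of which had their lowest level in TKO_602.

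**Figure D4:**
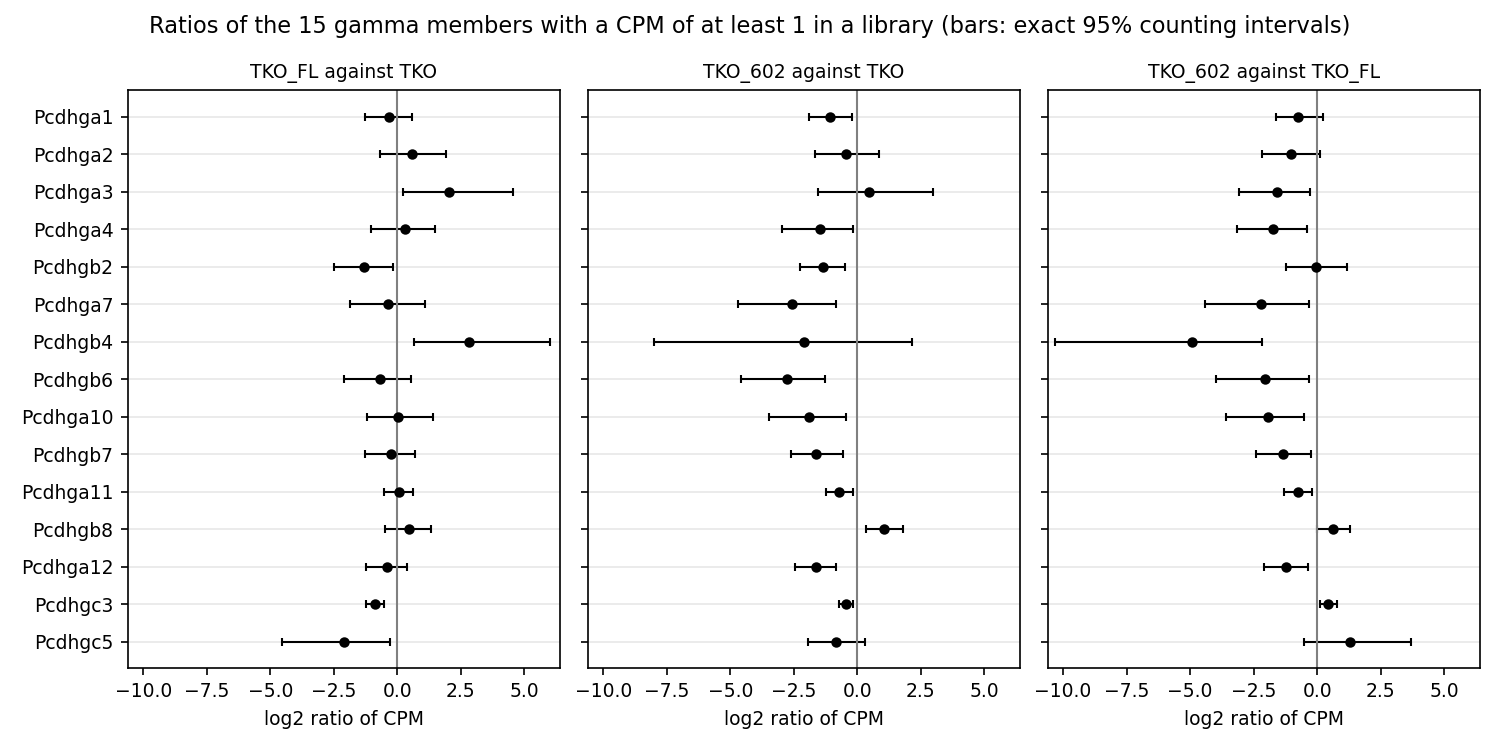
Log2 ratios of CPM without a pseudocount (x axis) for the 15 gamma genes that reached 1 CPM in a library, in genomic order, for the 3 comparisons. Points are ratios of single libraries with exact 95% counting intervals; in TKO_602 against TKO most points are left of 0 and Pcdhgb8 lies to the right at 1.07.

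The remaining gamma members stayed below a CPM of 1 in all libraries. Pcdhgb1, Pcdhga5, Pcdhga6, Pcdhgb5 and Pcdhgc4 had 4 to 10 reads in each library, where differences were not detectable. Pcdhga8 had 10, 16 and 2 reads, with a log2 ratio of -4.22 for TKO_602 against TKO_FL (-9.69 to -1.32). Pcdhga9 had 8, 10 and 28 reads, or 0.386, 0.520 and 0.625 CPM. Counted over all 22 gamma genes, the level was higher in TKO_FL than in TKO for 12 and lower for 10, and higher in TKO_602 than in TKO for 5 and lower for 17. In TKO_602 against TKO_FL it was higher for 5 and lower for 17. These counts take all gamma genes without a filter, and Pcdhgc4, with 4 reads in every library, counts as lower in TKO_602. They are therefore not read against the set of all genes that passed the filter. In that set 49.996%, 48.0% and 47.7% had a log2 fold below 0 in these 3 comparisons.

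The authors' deposited TPM table, which covers TKO and TKO_FL, also had Pcdhgc3 and Pcdhga11 as the leading members. Pcdhgc3 was listed at 8.60 TPM in TKO and 4.91 in TKO_FL, Pcdhga11 at 2.36 and 2.49, Pcdhga12 at 1.78 and 1.57, and Pcdhgb8 at 1.40 and 1.92. Pcdhgb8 ranked above Pcdhgb2, Pcdhga1 and Pcdhgb7 in TKO there and below them per own kilobase. That table divides by the whole exonic length, shared constant exons included, which for Pcdhgc3 is 4686 bases against 2568 own bases. Its values for gamma genes are therefore too low beside genes without shared exons.

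The non-clustered protocadherins lie outside the clusters. Pcdh1 and Pcdh12 are on the same chromosome downstream of gamma and are also counted among the genes beside the clusters below. Of these 12 genes 5 passed in TKO_FL against TKO, with 0 at least 2-fold higher or lower, and 4 in TKO_602 against TKO, with 0 higher and 1 lower. That gene was Pcdh7, at 9.66, 5.67 and 1.85 CPM in the 3 libraries (log2 fold -1.90 to TKO and -1.23 to TKO_FL). As for all genes that passed, 3.24% were higher and 2.50% lower in TKO_FL, and 11.0% higher and 8.06% lower in TKO_602. Pcdh19, mutated in a form of epilepsy, stood at 7.48, 4.37 and 3.75 CPM, and Pcdh1 at 12.1, 10.2 and 11.96 CPM. Summed levels of the 12 genes were 33.9, 24.4 and 19.3 CPM.

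Among 16 classical cadherins and catenins, 4 of 15 were at least 2-fold lower in TKO_FL than in TKO and 6 of 14 in TKO_602, with 0 higher in either. Among all genes that passed, 2.50% were lower and 3.24% higher in TKO_FL, and 8.06% lower and 11.0% higher in TKO_602. Cdh2, the N-cadherin gene, stood at 24.3, 10.6 and 3.30 CPM, and Cdh11 at 31.3, 12.3 and 5.58 CPM. Cdh1, which codes for the E-cadherin that holds stem cell colonies together and was named after its values were seen, stood at 492, 543 and 622 CPM. Of 18 neuroectoderm and neuron markers that passed in TKO_FL against TKO, 1 was higher and 0 lower, and of 16 in TKO_602 against TKO 1 was higher and 3 lower. Rbfox3, the higher gene in both comparisons, was at 0.338, 3.85 and 2.39 CPM. Tubb3, a tubulin of neurons and 1 of the 3 lower genes, was at 91.6, 78.2 and 14.6 CPM. Dcx was at 0 in every library.

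**Figure D5:**
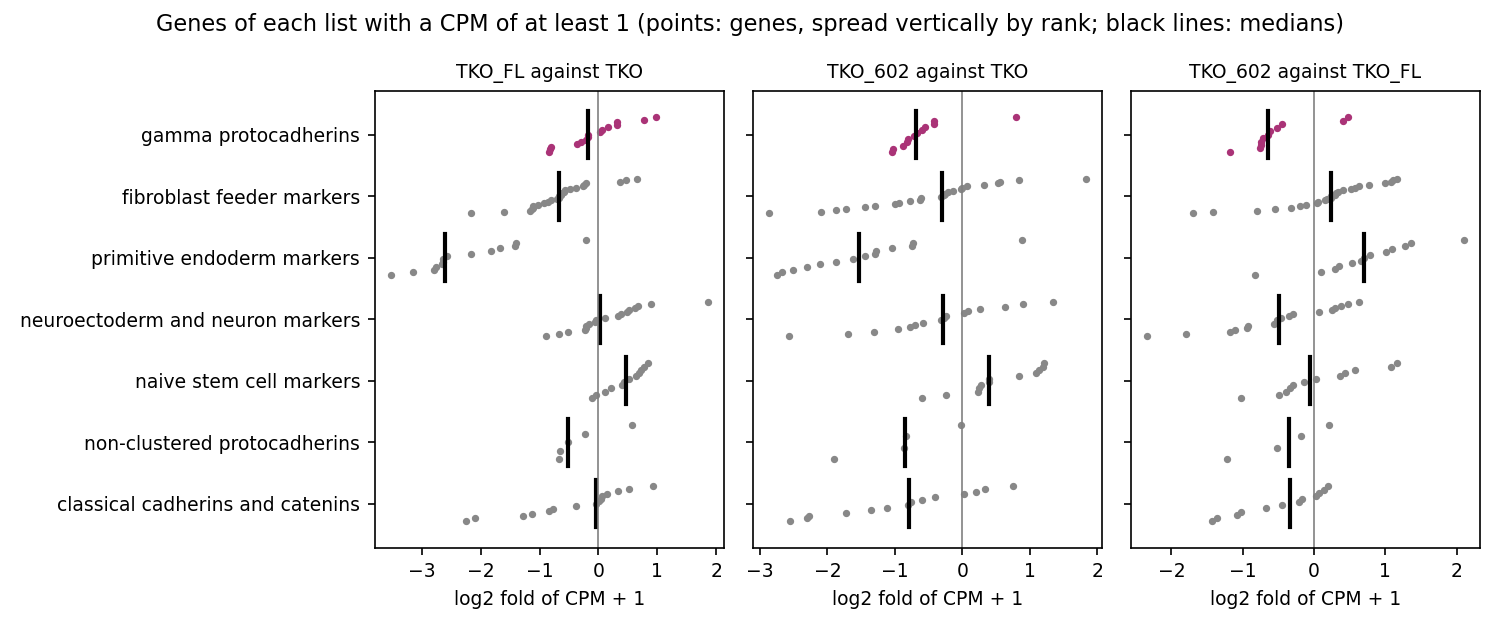
Log2 folds of CPM + 1 (x axis) of the gamma members and 6 other gene lists in the 3 comparisons, each point a gene that reached 1 CPM in either library compared and black lines the medians. In TKO_602 against TKO the gamma median is -0.69, and the primitive endoderm markers lie furthest left, with a median of -1.53.

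The 29 genes known to act on clustered protocadherin promoters all reached 1 CPM in each library. DNA methyltransferases are mutated in these cells, so reads of their genes need not stand for working enzyme. Feeder RNA can add reads as well. Of the 29 genes, 1 was at least 2-fold higher and 1 lower in TKO_FL than in TKO, and 1 was higher and 3 lower in TKO_602. Beside this, 3.24% of all genes that passed were higher and 2.50% lower in TKO_FL, and 11.0% higher and 8.06% lower in TKO_602. Dnmt1, the maintenance methyltransferase, was the higher gene, at 159 CPM in TKO, 3364 CPM in TKO_FL and 2444 CPM in TKO_602. Dnmt3b, which methylates clustered protocadherin promoters in the embryo, stood at 71.7, 34.0 and 11.9 CPM. The other lower genes in TKO_602 were Dnmt3l, a cofactor of de novo methylation (658, 408 and 226 CPM), and Trim28, a co-repressor (2337, 1753 and 1101 CPM). Ctcf, which binds these promoters, stood at 214, 217 and 181 CPM, and Smchd1, known to repress the clusters, at 127, 159 and 188 CPM; both were named after their values were seen.

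Of 24 genes for partners and processing of the proteins 23 passed. In TKO_FL against TKO 2 were at least 2-fold higher, Cyfip2 (24.8, 63.0 and 80.2 CPM) and Wasf3 (32.9, 70.0 and 82.7 CPM), both of the WAVE complex that links receptors to actin. In TKO_602 against TKO Psen2, a gamma-secretase subunit, and Nlgn2, a synaptic adhesion gene, were higher as well, and 0 were lower in either comparison. For all genes that passed, 3.24% were higher and 2.50% lower in TKO_FL, and 11.0% higher and 8.06% lower in TKO_602.

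Most genes beside the clusters differed by less than 2-fold between the libraries, as did most of all genes that passed the filter. Taf7, a subunit of the general transcription factor TFIID that lies between beta and gamma, stood at 215, 175 and 156 CPM in the 3 libraries. Slc25a2, its neighbour, had 0, 0.520 and 0.312 CPM. Downstream of gamma, Diaph1 stood at 368, 347 and 288 CPM and Hdac3 at 68.1, 65.9 and 69.0 CPM. Of the 15 genes of the list that passed, 0 were at least 2-fold apart in TKO_FL against TKO, and Tmco6 was higher and Wdr55 lower in TKO_602 than in TKO. The share of all genes at least 2-fold apart was 5.74% in the first comparison and 19.0% in the second.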

How the data were processed

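Groups are the genotypes of the labels. Tools listed in the submitters' processing notes are HISAT2, Trim Galore, featureCounts, Subread and SAMtools, with mm10 as the build. The deposited gene counts were made with featureCounts 2.0.6 in paired mode on the RefSeq annotation of mm10, without options for strand, read pairs, overlapping features or multi-mapping reads, per the file headers. Each mate is therefore counted alone, and reads of a gene and of one on the other strand cannot be told apart. The authors also deposited a gene signal table (TKO and TKO_FL), whose columns sum to 10000000 and were divided by 10 to give TPM. A further 11 library columns per table belong to other samples and were left out.

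CPM used TMM factors from edgeR 4.0.16 in R 4.3.3 (0.980 for TKO, 0.983 for TKO_FL and 1.04 for TKO_602). Folds are log2 ratios of CPM + 1, for genes that reached 1 CPM in either library compared, with a threshold of 2-fold. Ratios of reads carry exact 95% binomial intervals, and levels exact Poisson intervals, computed in Python 3.11.15 with scipy 1.17.1 from reads divided by 2. PCR duplicates are not accounted for. A count of 0 was set to a floor of 6 reads per library. No test across libraries was possible with 1 library per genotype. Own exon bases were computed from the exons listed in the count table. The steps were tested on simulated counts. Other scalings, pseudocounts, filters and the TPM table were tried.

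The members and gene lists were chosen with earlier results of these data known. Every member may be named, with values for those with a CPM of at least 1. Of the other lists, up to 6 genes with the largest folds, all genes of lists of 12 or fewer and the genes beside the clusters may be named.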

Additional observations from a re-analysis of the deposited data

How the results depend on the processing

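The depth limits the single genes: most members rest on under 30 reads in a library, and no replicate exists. No paired analysis was possible because there is 1 library per genotype. Of 71 values recomputed under other settings, 52 stayed close, 19 moved and 0 changed sign. Close meant counts within 1.5 times and ratios of sums within their counting interval. For medians it meant a shift under the counting error of the summed reads of the members that passed. By that rule the TKO_FL against TKO median of -0.17 stayed close at -0.06 with a pseudocount of 5 and at 0 without a filter. In TKO_FL against TKO a pseudocount of 0.1 gave 2 members higher and 2 lower (0 and 0 before), and the 2 members with a CPM of at least 5 had a median of -0.38 (-0.17 before). In TKO_602 against TKO a pseudocount of 0.1 gave 1 higher and 7 lower with a median of -1.27. There a pseudocount of 5 gave 0 lower and -0.29, the filter of 5 CPM 0 lower and -0.49, library totals alone 1 lower, and no filter a median of 0 over 58 members. In TKO_602 against TKO_FL the lower members were 6, 0 and 0 and the medians -1.15, -0.22 and -0.10 with a pseudocount of 0.1, of 5 and the filter of 5 CPM, and the median without a filter was 0. The medians of 0 follow from members with 0 reads in both libraries. The log2 ratios of summed reads, under alternatives chosen after seeing the data, ranged for beta from -0.61 to -0.70 in TKO_FL against TKO, -3.46 to -3.57 in TKO_602 against TKO and -2.77 to -2.86 in TKO_602 against TKO_FL.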
